A study of Oryctolagus cuniculus with 20 samples.

Results

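Carotid artery of the rabbit (Oryctolagus cuniculus) that had been moved into a vein and collected 14 days after surgery was set against unoperated external jugular vein, with 4 RNA sequencing libraries in each group, 8 of the 20 libraries of the series. The comparison asks how far expression in a transplanted artery lay from that in an unoperated vein. Every gene that reached at least 1 FPKM in at least 4 of the 20 libraries was tested, 8657 of 23669 genes. FPKM is the number of sequenced fragments of a gene corrected for transcript length and for the size of the library.

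The graft group is labelled common carotid artery, experimental group, and the vein group external jugular vein, unoperated. A further group of 4 libraries, unoperated carotid artery of the opposite side collected at 14 days, is given beside the results as a level without a test, because a difference between graft and vein also holds whatever separates carotid artery from jugular vein. All of these libraries carry a treatment label for transplantation, unoperated vein included, a genotype label that reads tissue, and HASMC as the cell line, while tissue and cell type labels describe whole vessels. Strain, age, the number of animals and whether host vein or surrounding tissue came along with the graft are not given in the sources used here. The libraries of a group are numbered as biological replicates and are not said to come from separate animals, so p-values measure the spread between these samples. In whole vessels, fewer cells of a type and less RNA per cell cannot be told apart.

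An artery wall is built mainly from smooth muscle cells that hold a contractile apparatus of actin, myosin and calcium handling proteins, inside a matrix of elastin and collagen. A vein has a thinner muscle layer, lower pressure and an endothelium that carries its own transcription factors, chemokine receptors and clotting proteins. Injured or transplanted vessels are known for smooth muscle cells that lose contractile proteins and divide, for entry of macrophages and lymphocytes, and for enzymes that cut and rebuild the matrix. Thrombospondins, among them THBS4 of the title of the series, are secreted proteins that bind matrix and cell surface receptors.

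The 4 grafts differed from each other more than the 4 veins did. Over 1265 genes averaging at least 30 FPKM, the SD of log2 values had a median of 0.324 in grafts, 0.135 in veins and 0.0733 in opposite arteries of day 14. The 13 mitochondrial genes made up 23.4%, 32.7%, 10.5% and 3.98% of all FPKM in graft replicates 1 to 4, and between 3.78% and 4.64% in the veins. Over 1329 genes, graft replicates 3 and 4 lay a median of 0.106 apart on the log2 scale, and the other pairs of grafts between 0.329 and 0.519. Vein replicates are numbered as in the sample titles, which differ from the submitters' library names (vein replicate 4 is library V1). Graft replicate 3 and vein replicate 4 were each close to a weighted mean of the other 3 libraries of their group (median difference 0.0775 and 0.0796, against 0.103 to 0.311 for the other 6), so leading counts are also given without these 2 libraries, called the mixture-like pair below. The 4 opposite arteries of day 14, whose spread was smaller, were similarly close to such a mean (0.0791 to 0.0823), as was graft replicate 4 of day 30 (0.0821). Whether any library is a mixture was not tested. A value of 0 appeared in at least 1 of the 8 libraries for 1455 tested genes, 140 of them with at least 20 FPKM in another of the 8, and such a 0 can be a failed estimate.

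Several markers of the labelled tissues were present, and others could not be tested. Smooth muscle ACTA2 and TAGLN, and endothelial CDH5 and VWF, were above 30 FPKM in all 8 libraries. NR2F2, the transcription factor that specifies venous endothelium, stood at 18.4, 11.9, 13.1 and 16.3 FPKM in vein replicates 1 to 4 and at 0.53 to 2.64 FPKM in opposite arteries. Of the genes looked up in all cases, THBS2, DES, EPHB4, HEY2, PECAM1, COL3A1, MKI67 and TBX5 did not reach the minimum level, and COMP, CNN1 and ELN were not found by name, so none of these was tested. Whether the low values of PECAM1, DES and COL3A1, genes of most vessel walls, are failed estimates was not tested.

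Of 8657 genes, 3057 (35.3%) passed the test, 1833 (21.2%) higher and 1224 (14.1%) lower in the graft than in the vein. Among them, 935 were higher and 634 lower by at least 1 on the log2 scale. The ranges of the 4 grafts and the 4 veins did not overlap in 3191 genes (36.9%). In 1553 genes (17.9%) the grafts lay above both the veins and the opposite arteries, in 699 (8.07%) below both, and in 154 (1.78%) between them. The split into higher and lower depended on scale: rescaling each library to TPM moved the median of all genes by -0.26 and left 758 genes higher and 1380 lower. Quantile normalization, which moved the median by -0.12, gave 1514 higher and 1579 lower. Without graft replicate 3 and vein replicate 4, the test called 1522 genes, 890 higher and 632 lower. Gene lists below are read against the median of all genes, 0.10 on the log2 scale, and against these percentages. List counts cover tested members only, such as 5 of 30 listed skeletal and cardiac muscle genes and 2 of 14 erythroid genes. Calls of named genes held in every alternative fit that included the gene (17 to 19 fits) unless an exception is stated. Some genes, TNC among them, were absent from fits with a filter of 5 FPKM or with genes listed at 0 left out.

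**Figure D1:**
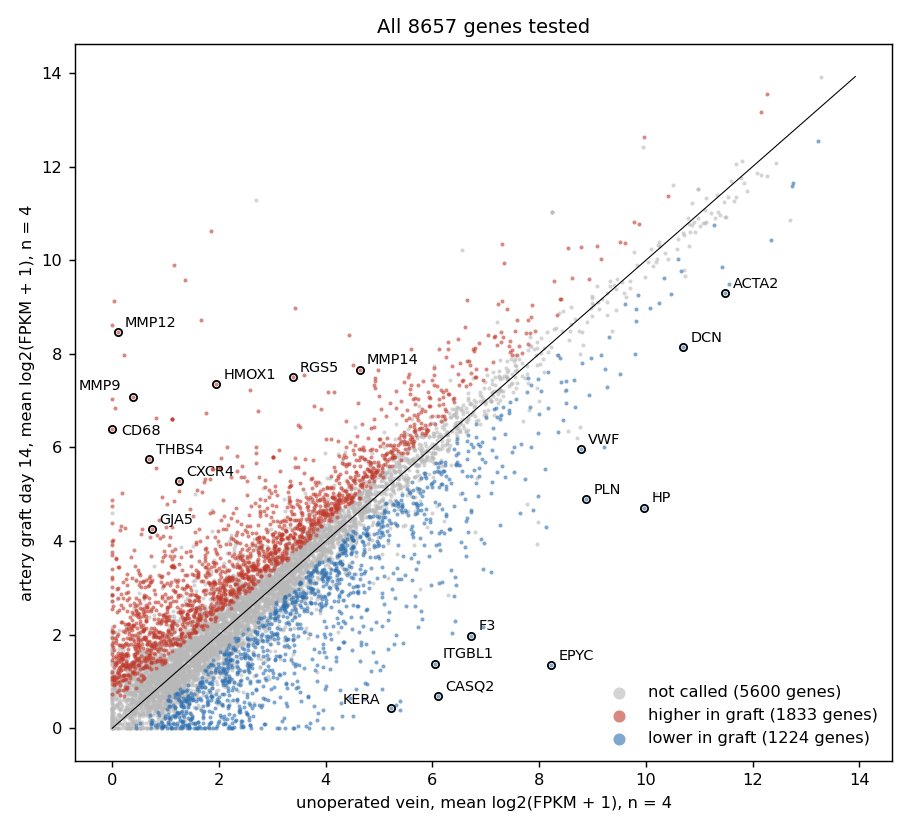
Each point is 1 of 8657 tested genes, placed by its mean log2(FPKM + 1) over 4 unoperated veins (horizontal axis) and over 4 artery grafts of day 14 (vertical axis), with the line of equality, and coloured by the test (1833 higher in the graft, 1224 lower, 5600 not called). MMP12, MMP9, CD68 and THBS4 lie near the left edge, with almost no FPKM in veins, and EPYC, CASQ2, F3, ITGBL1 and KERA lie low at the right side of the line.

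Contractile smooth muscle genes were mostly lower in the graft than in the vein. Of the 28 tested members of the list, 19 were lower and 2 higher, with a median log2 difference of -1.65, and 17 lay below both the veins and the opposite arteries (8.07% of all genes did). Without graft replicate 3 and vein replicate 4, 16 were lower and 1 higher. The summed level of the list was 3822, 6624, 3759 and 3623 FPKM in graft replicates 1 to 4, against 11901 to 13495 FPKM in veins and 21414 to 21960.3 FPKM in opposite arteries. The 3 groups did not overlap on this sum, and graft replicate 2 was the highest of the grafts.

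ACTA2, smooth muscle actin, stood at 468, 825, 632 and 640.1 FPKM in graft replicates 1 to 4 and at 3084, 2659, 2851 and 2916 FPKM in vein replicates 1 to 4 (log2 difference -2.19, SE 0.18, adjusted p = 0.00012). Its mean was 4.49-fold lower in the graft than in the vein, and the opposite arteries were higher still, at 7170.1 ± 115 FPKM (mean ± SD, n = 4). PLN, phospholamban, which slows the pump that refills calcium stores, stood at 28.8, 36.3, 24.4 and 26.1 FPKM in grafts and 474, 535, 445 and 429.8 FPKM in veins (log2 difference -3.99, SE 0.14, adjusted p = 1.92e-06). These groups were 16.3-fold apart in their means, while vein and opposite artery (599.6 ± 6.11 FPKM) lay near each other. SYNPO2, an actin bundling protein of the Z disc and of dense bodies, stood at 5.82, 6.54, 2.90 and 1.93 FPKM in grafts and 71.2 to 95.9 FPKM in veins (log2 difference -4.12, SE 0.30, adjusted p = 6.64e-05). Grafts 3 and 4 held less of it than grafts 1 and 2. TAGLN, transgelin, was 8.99-fold lower (log2 difference -3.22, SE 0.26, adjusted p = 0.000105). MYH11, the smooth muscle myosin heavy chain, stood at 1.21 ± 1.12 FPKM in grafts and 13.4 ± 2.68 FPKM in veins (log2 difference -2.83, SE 0.36, adjusted p = 0.00067), with no overlap. The members that went the other way were TPM1, a tropomyosin (log2 difference 0.69, SE 0.16, adjusted p = 0.0103), and HEYL, a target of Notch signalling (log2 difference 1.25, SE 0.16, adjusted p = 0.000793). TPM1, chosen after its values were seen, lost its call after rescaling to TPM (adjusted p = 0.323) and without graft replicate 3 and vein replicate 4 (0.0738).

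Genes of calcium handling, ion channels and vasoactive receptors were also mostly lower or not called. Of 28 tested, 14 were lower and 1 higher (median -0.87), or 8 lower and 1 higher without graft replicate 3 and vein replicate 4. CASQ2, calsequestrin, which holds calcium inside the store, stood at 0.45, 0.84, 0.49 and 0.71 FPKM in grafts and 80.8, 57.8, 63.3 and 72.9 FPKM in veins, with opposite arteries at 12.5 to 14.0 FPKM. Veins were therefore the highest of the 3 groups for this gene, and the graft mean was 110.4-fold below them (log2 difference -5.42, SE 0.14, adjusted p = 7.81e-07). KCNMA1, the calcium-activated potassium channel that relaxes muscle, was 5.12-fold lower (log2 difference -2.30, SE 0.20, adjusted p = 0.000146), and AGTR1, the angiotensin receptor, 6.20-fold lower (log2 difference -1.95, SE 0.22, adjusted p = 0.000388). The 1 member that was higher was RGS5, a brake on receptor signalling in mural cells, with 102, 137, 262 and 286 FPKM in grafts and 18.7, 2.10, 12.2 and 13.6 FPKM in veins (log2 difference 4.12, SE 0.60, adjusted p = 0.00137). Opposite arteries held 3294 ± 32.2 FPKM, so the grafts lay between the other vessels, above the veins and below the arteries. RGS5 was named after its values were seen.

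**Figure D2:**
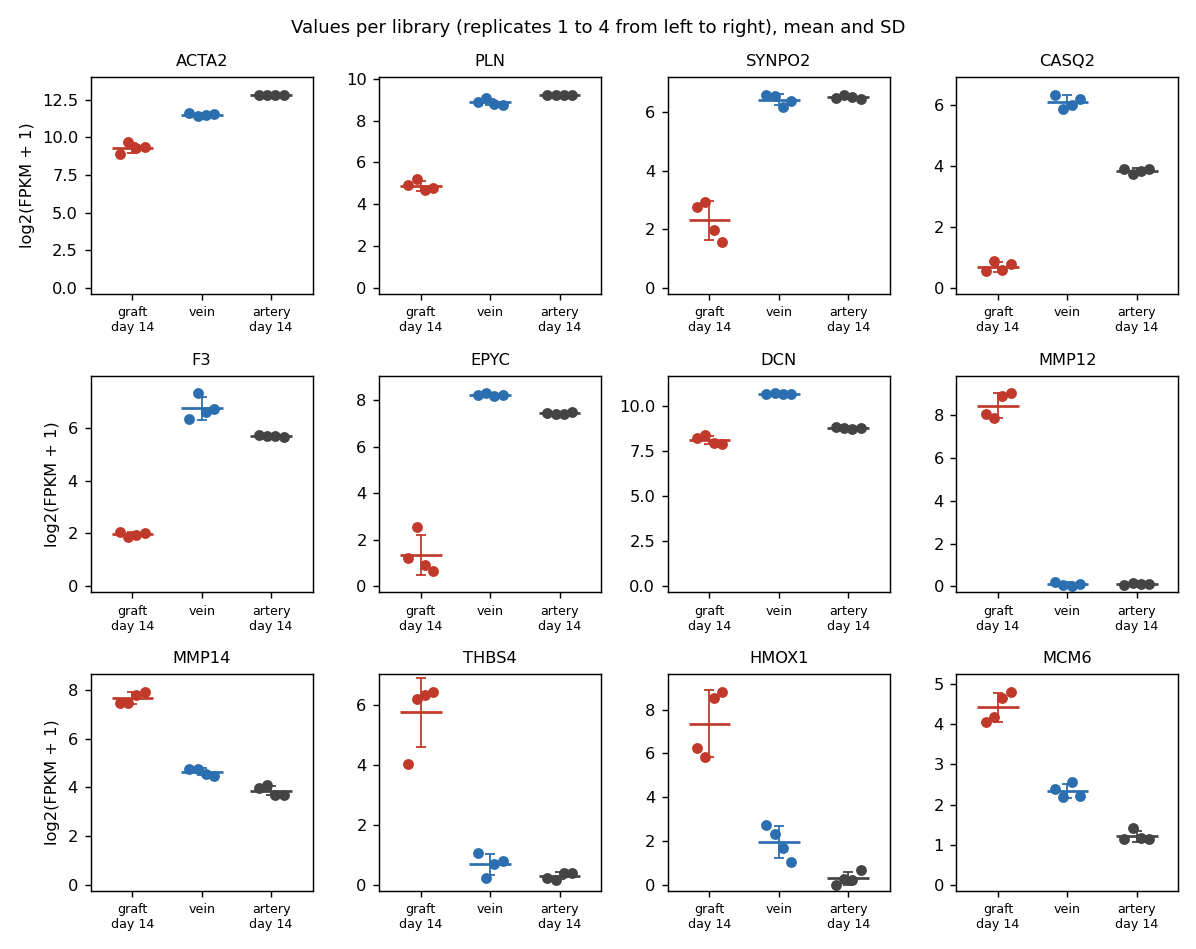
Each panel shows log2(FPKM + 1) of 1 gene in the 4 grafts of day 14, the 4 unoperated veins and the 4 opposite arteries of day 14, with replicates 1 to 4 from left to right, a line at the mean and bars of 1 SD. ACTA2, PLN, SYNPO2, CASQ2, F3, EPYC and DCN are lowest in the grafts, and MMP12, MMP14, THBS4, HMOX1 and MCM6 are highest there. HMOX1 splits the grafts into replicates 1 and 2 below replicates 3 and 4.

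Summed endothelial genes stood below the vein and above the opposite artery in all 4 grafts. The summed level of the 19 tested members was 1071, 1199.6, 598 and 498 FPKM in graft replicates 1 to 4, 1671 to 2119 FPKM in veins and 357 to 379 FPKM in opposite arteries, so the 3 groups did not overlap. In this list, 8 members were lower and 2 higher (median -0.65), and 4 lay between the veins and the arteries. The count of lower members became 5 without vein replicate 2, without vein replicate 4 or without graft replicate 3, and 3 without the mixture-like pair. VWF, von Willebrand factor, which tethers platelets, stood at 71.8, 93.5, 48.9 and 43.2 FPKM in grafts, 417, 509.8, 405 and 431 FPKM in veins and 6.75 to 7.28 FPKM in opposite arteries (log2 difference -2.82, SE 0.24, adjusted p = 0.000123, graft against vein). CAV1, of the flask-shaped membrane pits, was 3.45-fold lower than in veins (log2 difference -1.81, SE 0.19, adjusted p = 0.000328), at about the level of the opposite arteries (104 to 186 FPKM in grafts and 157 to 161 FPKM in arteries). EMCN, a sialomucin of venous and capillary endothelium, was 2.49-fold lower (log2 difference -1.32, SE 0.22, adjusted p = 0.00237).

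The 2 higher members were KDR and CDH5. KDR, the main receptor for vascular endothelial growth factor, stood at 21.4, 15.9, 11.8 and 10.6 FPKM in grafts and 4.75, 1.75, 3.81 and 3.79 FPKM in veins (log2 difference 1.82, SE 0.29, adjusted p = 0.00201). The groups did not overlap, with opposite arteries at 0.49 to 0.64 FPKM. CDH5, the cadherin of endothelial junctions, stood at 75.3, 77.1, 45.6 and 37.6 FPKM in grafts and 31.5 to 36.6 FPKM in veins (log2 difference 0.73, SE 0.23, adjusted p = 0.0432). Its call held in 8 of 19 alternative fits (highest adjusted p = 0.123, after scaling by the median of ratios), and ended under 3 rescalings, without each of the 4 veins in turn and without graft replicate 1 or 2.

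Venous identity genes were mostly lower in the graft, and arterial identity genes included 2 connexins above every other vessel shown. Of 16 venous genes tested, 11 were lower and 3 higher (median -1.29), and 5 lay between veins and opposite arteries (1.78% of all genes did). Without graft replicate 3 and vein replicate 4, 7 were lower and 3 higher. Of these 16 genes, 9 also stand in another list. ACKR1, a decoy receptor for chemokines on venules, stood at 15.4, 15.9, 14.7 and 12.1 FPKM in grafts, 104, 161, 122 and 118 FPKM in veins and 6.70 to 8.71 FPKM in opposite arteries (log2 difference -3.02, SE 0.15, adjusted p = 9.71e-06). CPE, a carboxypeptidase, was 9.72-fold lower than in veins (log2 difference -3.20, SE 0.23, adjusted p = 6.64e-05), and PRSS23, a secreted serine protease, 4.29-fold lower (log2 difference -2.06, SE 0.18, adjusted p = 0.000135), both also below the opposite arteries. NR2F2 stood at 5.52, 6.41, 5.50 and 0.86 FPKM in grafts, with replicate 4 far below the other 3, against 14.9 ± 2.97 FPKM in veins (log2 difference -1.68, SE 0.43, adjusted p = 0.0176). That call ended without vein replicate 1 (adjusted p = 0.051) and without graft replicate 3 and vein replicate 4 (0.0781). The venous members that were higher were POSTN, periostin (log2 difference 2.74), APLNR, the apelin receptor (log2 difference 2.41), and NRP2, a receptor for semaphorins (log2 difference 1.77), all named after their values were seen.

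Of 19 arterial identity genes tested, 6 were higher and 2 lower (median 0.42), where 21.2% of all genes were higher and 14.1% lower. The counts were 4 and 1 without graft replicate 3 and vein replicate 4, and 5 and 3 after rescaling to TPM. The lower count was 0 or 1 whichever library was left out. GJA5, connexin 40 of arterial endothelium, stood at 30.2, 37.5, 12.7 and 6.95 FPKM in grafts, 0.16, 0.54, 2.25 and 0.35 FPKM in veins and 4.07 to 5.81 FPKM in opposite arteries (log2 difference 3.51, SE 0.54, adjusted p = 0.00186). GJA4, connexin 37, stood at 38.3, 73.4, 17.3 and 14.0 FPKM in grafts, 4.87 to 6.57 FPKM in veins and 0 to 2.15 FPKM in arteries (log2 difference 2.14, SE 0.47, adjusted p = 0.00883). For both connexins the grafts lay above veins and arteries, and grafts 1 and 2 held more than grafts 3 and 4, as they did for the endothelial sum. CXCR4, a chemokine receptor of arterial endothelium and of leukocytes, was 26.2-fold higher (log2 difference 4.02, SE 0.22, adjusted p = 1.54e-05), with 31.1 to 45.4 FPKM in grafts and 0.68 to 2.27 FPKM in veins. EFNB2, the ephrin that marks arteries, stood at 19.2 ± 4.29 FPKM in grafts, 8.20 ± 3.27 FPKM in veins and 27.8 ± 1.55 FPKM in opposite arteries (log2 difference 1.19, SE 0.29, adjusted p = 0.0144), between the other vessels. Its call ended after rescaling to TPM (adjusted p = 0.0618) and without graft replicate 3 and vein replicate 4 (0.0547). DLL4, a Notch ligand, was also higher (log2 difference 1.75, SE 0.46, adjusted p = 0.0189), a call that ended without vein replicate 1 (adjusted p = 0.052), without vein replicate 3 (0.0519) and without the mixture-like pair (0.0589). GATA2, listed as arterial and as a mast cell factor, was lower (log2 difference -1.16, SE 0.37, adjusted p = 0.0405), with overlap, in 9 of 18 alternative fits. That call ended without vein replicate 2, 3 or 4 and without graft replicate 1, 3 or 4 (highest adjusted p = 0.159, without the mixture-like pair).

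**Figure D3:**
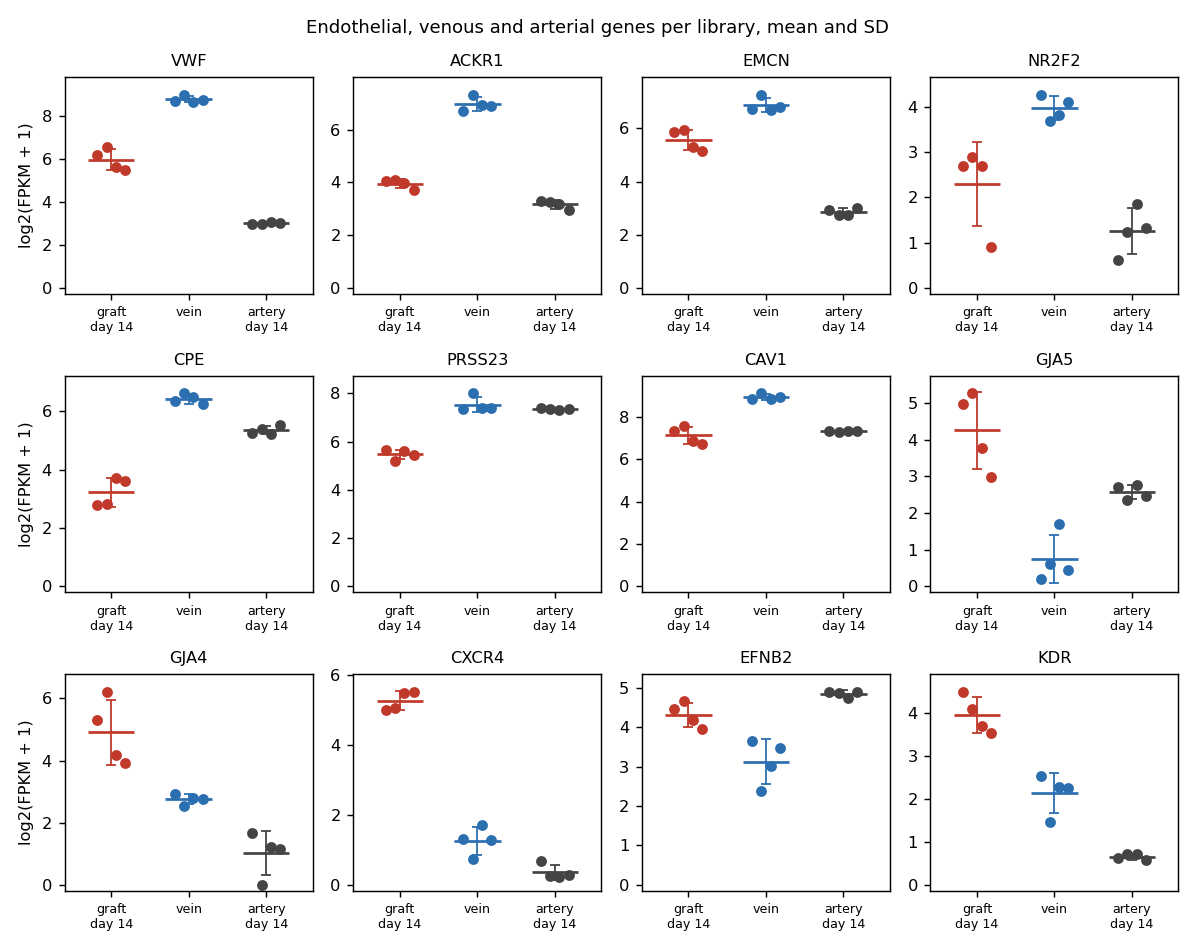
Each panel shows log2(FPKM + 1) of an endothelial, venous or arterial gene in the 4 grafts of day 14, the 4 unoperated veins and the 4 opposite arteries of day 14, with replicates 1 to 4 from left to right, a line at the mean and bars of 1 SD. VWF, ACKR1, EMCN and NR2F2 are highest in veins, GJA5, GJA4, CXCR4 and KDR in grafts and EFNB2 in arteries, and CPE and PRSS23 are lowest in grafts.

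Leukocyte adhesion genes went both ways. Of 13 tested, 7 were higher and 4 lower (median 0.67), or 3 and 3 without graft replicate 3 and vein replicate 4, and 3 and 4 in a fit over all 20 libraries. VCAM1, the adhesion molecule of activated endothelium, stood at 15.8, 11.2, 7.76 and 5.63 FPKM in grafts and 2.48, 2.08, 1.41 and 2.00 FPKM in veins (log2 difference 1.82, SE 0.29, adjusted p = 0.00202), with adjusted p = 0.0557 in the fit over all 20 libraries. ITGAL, a chain of the integrin by which leukocytes bind ICAM proteins, stood at 8.09, 5.13, 32.9 and 42.1 FPKM in grafts and 0.24 to 0.87 FPKM in veins (log2 difference 3.36, SE 0.62, adjusted p = 0.00409). VCAM1 was highest in grafts 1 and 2, and ITGAL in grafts 3 and 4. JAM2, a junction protein of venules, was 3.12-fold lower (log2 difference -1.60, SE 0.23, adjusted p = 0.00123). Among 4 lymphatic endothelial genes, PDPN, podoplanin, was 5.50-fold higher (log2 difference 2.07, SE 0.19, adjusted p = 0.00018), while LYVE1, the hyaluronan receptor of lymph vessels (16.5 to 60.6 FPKM in grafts and 0.92 to 35.4 FPKM in veins), and CCL21, a chemokine of lymph vessels (64.1 to 119.5 and 101 to 146 FPKM), overlapped between the groups and did not pass. PDPN is also made by fibroblasts and macrophages.

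Of 14 clotting and complement genes tested, 7 were lower and 0 higher (median -0.87), or 5 and 0 without graft replicate 3 and vein replicate 4. Without graft replicate 2, and in the fit over all 20 libraries, 2 were higher. F3, tissue factor, which starts the clotting cascade, stood at 3.19, 2.66, 2.80 and 3.10 FPKM in grafts and 78.4, 157, 95.8 and 102 FPKM in veins (log2 difference -4.75, SE 0.20, adjusted p = 4.79e-06). The 4 grafts were close to each other, 36.9-fold below the vein mean, and below the opposite arteries too, which held 50.5 ± 1.05 FPKM. Grafts of day 30 held 98.3 ± 42.4 FPKM. PROCR, the endothelial receptor for protein C, was 7.84-fold lower (log2 difference -2.92, SE 0.30, adjusted p = 0.000286), and PROS1, protein S, 2.98-fold lower (log2 difference -1.56, SE 0.19, adjusted p = 0.00058). TFPI, the inhibitor of the tissue factor pathway, did not pass (log2 difference 0.15, SE 0.14, adjusted p = 0.428) and was named after its values were seen. CD59, which shields cells from complement, was 4.76-fold lower (log2 difference -2.18, SE 0.19, adjusted p = 0.000146).

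THBS4 was among the genes with the largest rise. It stood at 15.3, 71.8, 78.6 and 85.5 FPKM in graft replicates 1 to 4 and at 1.09, 0.17, 0.62 and 0.72 FPKM in vein replicates 1 to 4 (log2 difference 5.05, SE 0.52, adjusted p = 0.000286). No graft reached as low as any vein, and veins overlapped with the opposite arteries (0.237 ± 0.0978 FPKM), and graft replicate 1 held the least among grafts. The two-sided exact permutation test gave p = 0.0286, the smallest that 4 against 4 allow. Any gene whose 2 groups do not overlap, 36.9% of those tested, gives this same p. The 2 other thrombospondins tested were lower. THBS1, which activates transforming growth factor beta and blocks vessel growth, stood at 38.5, 54.3, 63.6 and 68.1 FPKM in grafts and 161, 116, 148 and 158 FPKM in veins (log2 difference -1.38, SE 0.19, adjusted p = 0.00117), with opposite arteries at 6.11 ± 0.445 FPKM. It therefore lay below the vein and above the artery, and its call ended in the fit over all 20 libraries (adjusted p = 0.0854). THBS3 stood at 9.64 ± 1.03 FPKM in grafts, 14.6 ± 1.01 FPKM in veins and 5.83 ± 0.868 FPKM in opposite arteries (log2 difference -0.55, SE 0.11, adjusted p = 0.00611), also between them, and its call ended without graft replicate 3 and vein replicate 4 (adjusted p = 0.0638).

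Of all 15 matricellular proteins tested, 6 were higher and 5 lower (median 0.27, which turned to -0.05 after rescaling to TPM), or 4 and 2 without the mixture-like pair. TNC, tenascin C, which loosens cell adhesion in wounds, was higher in all grafts than in all veins (log2 difference 2.88, adjusted p = 7.22e-05). VTN, vitronectin, was listed at 1.34, 2.38, 3.24 and 3.82 FPKM in grafts and at 0 to 0.02 FPKM in veins (log2 difference 1.83, SE 0.23, adjusted p = 0.000645). MGP, the inhibitor of calcification, went the other way, with 1714, 1941, 1074 and 1010.3 FPKM in grafts and 4609, 6193, 4998 and 5216 FPKM in veins (log2 difference -1.92, SE 0.25, adjusted p = 0.000808). Opposite arteries held 6486 ± 98.7 FPKM of MGP, so the grafts were the lowest of the 3 vessels.

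Many matrix proteases were higher in the graft. Of 29 proteases and inhibitors tested, 15 were higher and 2 lower (median 1.02), and 13 lay above veins and opposite arteries (17.9% of all genes were), or 12 higher and 1 lower without graft replicate 3 and vein replicate 4. MMP12, macrophage elastase, stood at 264, 232, 474 and 527 FPKM in grafts and at 0.17, 0.06, 0 and 0.07 FPKM in veins (log2 difference 8.36, SE 0.27, adjusted p = 1.27e-06). MMP9, gelatinase B, stood at 105, 67.7, 204 and 222 FPKM in grafts and 0.08 to 0.76 FPKM in veins (log2 difference 6.69, SE 0.38, adjusted p = 1.72e-05). Both were near 0 in every vein, and both were higher in grafts 3 and 4 than in grafts 1 and 2. MMP14, a collagenase anchored in the cell membrane, was already present in veins (25.8, 26.2, 22.4 and 21.3 FPKM) and was 8.51-fold higher in grafts (177, 175, 222 and 241 FPKM, log2 difference 3.03, SE 0.14, adjusted p = 5.84e-06). ADAM12, a shedding protease of mesenchymal cells, was 33.2-fold higher (log2 difference 4.00, SE 0.20, adjusted p = 9.71e-06), and PLAU, the urokinase that activates plasmin, 3.26-fold higher (log2 difference 1.66, SE 0.08, adjusted p = 9.73e-06). The members that were lower were the inhibitors TIMP3 (log2 difference -1.58, SE 0.29, adjusted p = 0.00432) and TIMP4 (log2 difference -1.60, SE 0.39, adjusted p = 0.0143), named after their values were seen. The call of TIMP4 ended without graft replicate 3 and vein replicate 4 (adjusted p = 0.0788).

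In the main test, collagens and the enzymes that modify them were higher or not called. Of 16 tested, 11 were higher and 0 lower (median 1.08), 7 above veins and opposite arteries, or 8 higher without the mixture-like pair and 6 after rescaling to TPM. COL14A1, a collagen chain, did not pass (log2 difference -3.55, adjusted p = 0.053) and was named after its values were seen. In this list, 1 member lay below veins and opposite arteries. Without graft replicate 2 or 4, 1 member was called lower. The count was also 1 with a filter of 5 FPKM, after median-of-ratios scaling and after quantile normalization. It was 1 too over all 20 libraries, with libraries weighted by group and with genes listed at 0 left out. COL1A1, the main chain of type I collagen, stood at 116, 110.4, 105 and 85.4 FPKM in grafts and 51.4, 64.9, 49.9 and 44.5 FPKM in veins (log2 difference 0.98, SE 0.15, adjusted p = 0.0016). COL11A1, a minor chain that seeds fibrils, stood at 5.47, 26.7, 23.8 and 27.8 FPKM in grafts and 0.07 to 0.14 FPKM in veins (log2 difference 4.10, SE 0.46, adjusted p = 0.000405), with replicate 1 the lowest graft, as for THBS4. COL6A2 was 1.99-fold higher (log2 difference 0.98, SE 0.12, adjusted p = 0.000514). Among the enzymes, PLOD1, which hydroxylates lysines of collagen, was 2.48-fold higher (log2 difference 1.24, SE 0.10, adjusted p = 0.000102), and LOXL1, which cross-links elastin and collagen, 2.31-fold higher (log2 difference 1.18, SE 0.10, adjusted p = 0.00012).

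Small proteoglycans held several of the largest falls. Of 22 proteoglycan genes tested, 7 were lower and 4 higher (median -0.05, of either sign across fits), or 6 lower and 1 higher without graft replicate 3 and vein replicate 4. The count of higher members was 2 without vein replicate 3 or 4 and 7 without graft replicate 2. EPYC, epiphycan, stood at 1.35, 4.91, 0.9 and 0.59 FPKM in grafts, 297, 313, 283 and 299 FPKM in veins and 166 to 177 FPKM in opposite arteries (log2 difference -6.88, SE 0.37, adjusted p = 1.27e-05). KERA, keratocan, stood at 0.35, 0.81, 0.17 and 0.16 FPKM in grafts and 44.9, 29.8, 36.5 and 36.5 FPKM in veins (log2 difference -4.80, SE 0.19, adjusted p = 3.93e-06), with opposite arteries at 1.11 ± 0.226 FPKM. DCN, decorin, which coats collagen fibrils and binds growth factors, stood at 307, 334, 253 and 243 FPKM in grafts and 1658, 1708, 1619 and 1678 FPKM in veins (log2 difference -2.56, SE 0.13, adjusted p = 1.04e-05), 5.86-fold apart. For EPYC, KERA and DCN the grafts lay below veins and arteries. PODN, podocan, was 3.90-fold lower (log2 difference -1.93, SE 0.22, adjusted p = 0.000444), while VCAN, versican, a large proteoglycan of injured intima, was higher (log2 difference 1.84, SE 0.35, adjusted p = 0.00465). LUM, lumican, was higher (log2 difference 1.29, SE 0.38, adjusted p = 0.0301) in 12 of 19 alternative fits, losing the call under 3 rescalings, without vein replicate 1, 3 or 4 and without the mixture-like pair (highest adjusted p = 0.0898). VCAN and LUM were named after their values were seen.

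Elastic fibre genes split, with 3 of 11 higher and 3 lower (median 0.10, of either sign across fits), where 21.2% of all genes were higher and 14.1% lower. The counts were 2 and 1 without the mixture-like pair and 2 and 4 after rescaling to TPM. EMILIN1, of the elastin interface, stood at 78.9, 65.2, 72.5 and 71.7 FPKM in grafts and 14.9, 15.8, 13.9 and 15.6 FPKM in veins (log2 difference 2.18, SE 0.09, adjusted p = 5.23e-06), with arteries between them. FBN1 (log2 difference 0.75, SE 0.12, adjusted p = 0.00216) and FBN2 (log2 difference 1.28, SE 0.25, adjusted p = 0.00553), the fibrillins, were higher too, with FBN1 no longer called after rescaling to TPM (adjusted p = 0.181) and FBN2 without the mixture-like pair (0.0516). MFAP5, a microfibril protein, was 3.75-fold lower (log2 difference -1.90, SE 0.21, adjusted p = 0.000392). In the basement membrane list, 3 of 11 were lower and 1 higher: the laminin chains LAMA2 (log2 difference -2.49, SE 0.18, adjusted p = 5.27e-05), LAMB2 (log2 difference -1.71, SE 0.22, adjusted p = 0.000734) and LAMA4 (log2 difference -0.70, SE 0.14, adjusted p = 0.00575) against the collagen chain COL4A2 (log2 difference 1.26, SE 0.17, adjusted p = 0.000934). The call of LAMA4 ended without the mixture-like pair (adjusted p = 0.0557). LAMA2 and LAMB2, chains of the laminins around muscle cells, lay below veins and opposite arteries in all 4 grafts.

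Macrophage genes were higher in the graft than in the vein or were not called. Of 22 tested, 13 were higher and 0 lower (median 1.78), 12 above veins and opposite arteries, or 9 higher without graft replicate 3 and vein replicate 4 and 8 with genes listed at 0 left out. The summed level was 1326, 1413, 3374 and 3834 FPKM in graft replicates 1 to 4, 501, 293, 459.7 and 453 FPKM in vein replicates 1 to 4 and 201 to 217 FPKM in opposite arteries. The grafts lay above the veins in all cases and fell apart into replicates 1 and 2 and replicates 3 and 4. CD68, of the lysosomal membrane of macrophages, was listed at 53.3, 45.7, 132 and 146 FPKM in grafts and at 0 in all 4 veins (adjusted p = 2.29e-05), so no fold is given. CD14, a receptor for bacterial lipopolysaccharide, stood at 179.6, 141, 283 and 309 FPKM in grafts and 20.4, 21.6, 20.4 and 25.4 FPKM in veins (log2 difference 3.25, SE 0.25, adjusted p = 7.9e-05). ATP6V0D2, a proton pump subunit of osteoclasts and macrophages, stood at 69.7, 59.8, 188 and 208 FPKM in grafts and 0 to 0.1 FPKM in veins (log2 difference 6.79, SE 0.41, adjusted p = 2.31e-05). TREM2, a lipid receptor of foamy macrophages, stood at 18.1, 29.9, 82.7 and 99.5 FPKM in grafts and 0 to 1.28 FPKM in veins (log2 difference 4.75, SE 0.56, adjusted p = 0.000501). Grafts 3 and 4 held more of all 4 genes than grafts 1 and 2. In the same list, 9 members were not called. MRC1, the mannose receptor of resident macrophages, was one, at 7.74 to 50.0 FPKM in grafts and 6.47 to 28.2 FPKM in veins. CD163 (log2 difference -0.009), LYZ (-0.39), CYBB (0.10) and CD74 (0.11) differed little or were slightly lower. C1QC (0.76), CSF1R (0.90), CD84 (1.11) and FABP4 (1.47) did not pass either. All of these were named after their values were seen.

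Lysosome and lipid handling genes showed the same pattern among the grafts. Of 28 tested, 19 were higher and 0 lower (median 1.44), 18 above veins and opposite arteries, or 14 higher without the mixture-like pair. Their sum was 6738, 9170.3, 14032 and 15584 FPKM in graft replicates 1 to 4 and 2030.2 to 2091 FPKM in veins. HMOX1, heme oxygenase, which breaks down heme, stood at 74.5, 55.9, 366 and 449 FPKM in grafts and 5.59, 4.01, 2.19 and 1.07 FPKM in veins (log2 difference 5.41, SE 0.73, adjusted p = 0.000968). FTL, ferritin light chain, which stores the iron released, stood at 3936, 6493, 7672 and 8367 FPKM in grafts and 979.6 to 1028 FPKM in veins (log2 difference 2.67, SE 0.24, adjusted p = 0.000173). HBB2, a haemoglobin chain of red cells, did not follow them, at 3911, 3769, 1281 and 644 FPKM in grafts and 2592, 4265, 21150.0 and 8226 FPKM in veins, and it and EPB42, of the red cell membrane (0.05 to 0.7 and 0.52 to 9.37 FPKM), overlapped and did not pass. GRN, progranulin, was 6.83-fold higher (log2 difference 2.66, SE 0.24, adjusted p = 0.000159), and HEXA, a hexosaminidase, 3.34-fold higher (log2 difference 1.69, SE 0.19, adjusted p = 0.000443). GUSB, the lysosomal glucuronidase, was listed at 51.8, 50.3, 181 and 197 FPKM in grafts and 0, 0, 0.68 and 4.89 FPKM in veins (log2 difference 5.81, SE 0.70, adjusted p = 0.000561). CHIT1, the chitinase of activated macrophages, stood at 31.0, 28.0, 33.0 and 34.2 FPKM in grafts and 0 to 0.33 FPKM in veins (log2 difference 4.84, SE 0.15, adjusted p = 1.21e-06), with grafts close to each other. MYO1F, a myosin of white blood cells, was listed at 12.8, 9.07, 55.1 and 65.6 FPKM in grafts and at 0 in all veins.

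Lymphocyte genes were higher in the graft at low levels. In the T and natural killer cell list, GZMA, GZMB, PRF1, NKG7 and KLRD1, genes of natural killer and cytotoxic cells, were not tested. CD8B was not called (log2 difference 0.12, adjusted p = 0.753) and was named after its values were seen. Of 9 members tested, 8 were higher (median 1.17), 8 above veins and opposite arteries, or 6 without the mixture-like pair. Their sum was 25.1, 23.5, 31.4 and 36.8 FPKM in grafts and 3.91, 2.29, 10.4 and 5.86 FPKM in veins, with vein replicate 3 the highest vein. IL7R, the survival receptor of T cells, was 13.6-fold higher (log2 difference 2.23, SE 0.40, adjusted p = 0.00364), CCR7, the homing receptor, 6.27-fold (log2 difference 1.71, SE 0.29, adjusted p = 0.00266), and CD2 and CD5, of the T cell surface, 4.98-fold and 7.92-fold (log2 differences 1.17 and 1.03). Of 5 B and plasma cell genes, 4 were higher (median 1.09), or 2 without the mixture-like pair and 1 with genes listed at 0 left out. JCHAIN, which joins antibody chains, stood at 67.8, 28.1, 43.8 and 45.0 FPKM in grafts and 0, 5.05, 18.0 and 4.66 FPKM in veins (log2 difference 3.16, SE 0.79, adjusted p = 0.0156), with the call lost at a pseudocount of 0.1 (adjusted p = 0.057) and without the mixture-like pair (0.0869). BLNK, an adaptor of the B cell receptor, was 11.1-fold higher (log2 difference 1.78, SE 0.17, adjusted p = 0.000216) and DERL3, of secretory cells, stood at 0.99 to 1.73 against 0 to 0.27 FPKM (log2 difference 1.09, SE 0.16, adjusted p = 0.00164). MZB1, a chaperone of antibody assembly (log2 difference 1.08, SE 0.36, adjusted p = 0.0466), held its call in 3 of 17 alternative fits, and lost it without vein replicate 1, 2 or 4 and without graft replicate 2, 3 or 4 (highest adjusted p = 0.138, after rescaling to TPM). Of 7 neutrophil and mast cell genes, KIT, the receptor of mast cells (log2 difference 1.21, SE 0.18, adjusted p = 0.00137), and FPR1, of neutrophils and macrophages (log2 difference 1.85, SE 0.34, adjusted p = 0.00403), were higher, while the neutrophil genes S100A8 (54.0 to 112 FPKM in grafts and 15.8 to 108 FPKM in veins) and S100A9 (7.21 to 40.0 and 13.8 to 36.0 FPKM) overlapped and did not pass.

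**Figure D4:**
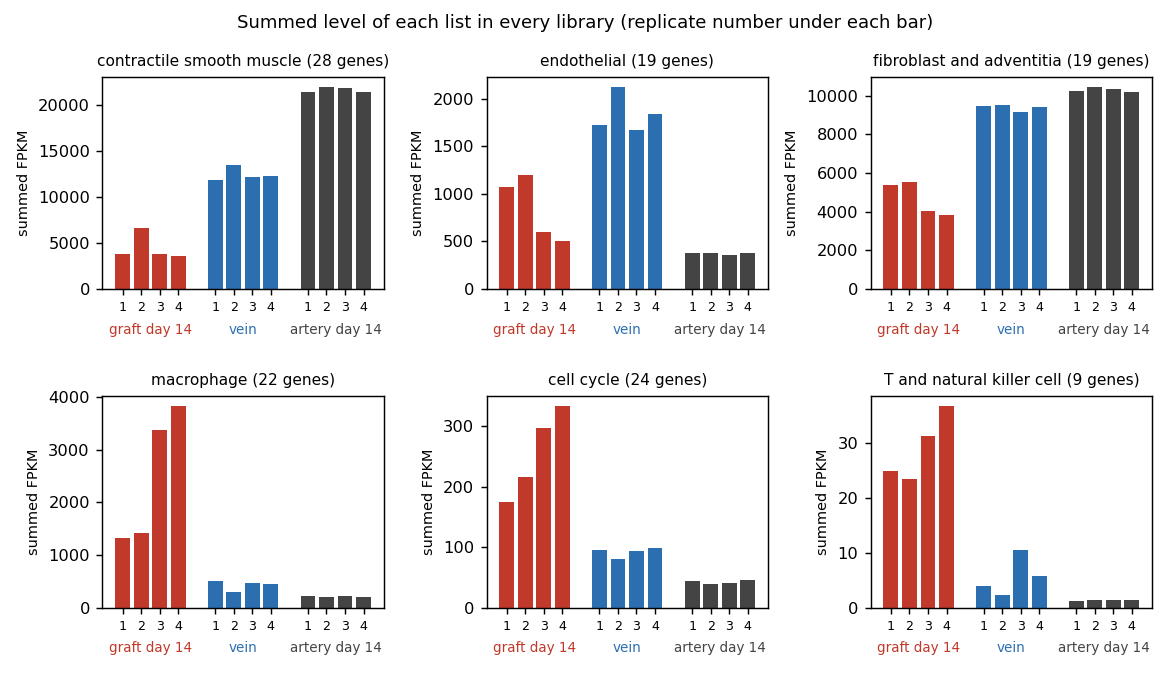
Bars show the summed FPKM of the tested members of 6 gene lists in each of the 4 grafts of day 14, 4 unoperated veins and 4 opposite arteries of day 14. Contractile and fibroblast sums are lowest in the grafts, endothelial sums are highest in veins, and macrophage, cell cycle and T cell sums are highest in grafts, with macrophage sums of 1326 and 1413 in grafts 1 and 2 against 3374 and 3834 in grafts 3 and 4.

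Cytokine genes were mostly higher or not called. Of 23 tested, 13 were higher and 1 lower (median 1.33), or 14 and 0 without graft replicate 3 and vein replicate 4. OSM, oncostatin M, stood at 8.64, 7.24, 11.0 and 9.03 FPKM in grafts and 0.13 to 0.42 FPKM in veins (log2 difference 3.02, SE 0.16, adjusted p = 1.19e-05). CXCL8, which draws neutrophils, stood at 31.2, 11.1, 36.0 and 39.5 FPKM in grafts and 0.83 to 1.29 FPKM in veins (log2 difference 3.75, SE 0.36, adjusted p = 0.000216). CCL2, which draws monocytes, stood at 83.9, 33.8, 34.2 and 26.9 FPKM in grafts and 3.62 to 5.70 FPKM in veins (log2 difference 2.95, SE 0.33, adjusted p = 0.00043), with graft replicate 1 well above the others. IL1RN, the antagonist of the interleukin 1 receptor, was listed at 8.06, 7.23, 13.8 and 24.4 FPKM in grafts and at 0 in all veins (adjusted p = 0.000177). The lower member was PTGS2, the inducible cyclooxygenase, at 9.57, 9.34, 4.73 and 3.98 FPKM in grafts and 11.9, 46.5, 20.4 and 19.9 FPKM in veins (log2 difference -1.61, SE 0.42, adjusted p = 0.0191), named after its values were seen. Its call ended without graft replicate 3 (adjusted p = 0.0554), without graft replicate 4 (0.0505), in the fit over all 20 libraries (0.0685) and without the mixture-like pair (0.107).

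Interferon response and antigen presentation genes were higher in 10 of 20 cases and lower in 0 (median 0.76), 10 above veins and opposite arteries, or 7 without the mixture-like pair. RLA-DR-ALPHA, which presents antigen to helper T cells as part of class II, stood at 766, 429, 552 and 529 FPKM in grafts and 179.5, 104, 194 and 166 FPKM in veins (log2 difference 1.82, SE 0.24, adjusted p = 0.000846). PSMB8 and PSMB10, of the immunoproteasome, were 2.54-fold (log2 difference 1.24, SE 0.15, adjusted p = 0.000644) and 2.34-fold higher (log2 difference 1.13, SE 0.12, adjusted p = 0.000349), and GBP1, a guanylate binding protein, 4.60-fold (log2 difference 1.61, SE 0.22, adjusted p = 0.000971). Opposite arteries held 11.7 ± 0.95 FPKM of the class II chain, so veins stood above arteries and grafts above veins.

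Cell cycle genes were higher or not called. Of 24 tested, 19 were higher and 0 lower (median 1.59), 19 above veins and opposite arteries, or 16 without graft replicate 3 and vein replicate 4. The sum was 175, 216, 298 and 334 FPKM in graft replicates 1 to 4 and 80.9 to 97.9 FPKM in veins. MCM6, of the helicase that opens DNA for copying, stood at 15.7, 17.0, 24.1 and 27.0 FPKM in grafts and 4.20, 3.53, 4.87 and 3.67 FPKM in veins (log2 difference 2.09, SE 0.19, adjusted p = 0.000182). MCM4 of the same helicase was 5.62-fold higher (log2 difference 1.90, SE 0.21, adjusted p = 0.000412), TYMS, which makes thymidylate, 4.03-fold (log2 difference 1.78, SE 0.17, adjusted p = 0.00019), and PCNA, the sliding clamp, 2.28-fold (log2 difference 1.15, SE 0.12, adjusted p = 0.000264). Grafts 3 and 4 had the 2 highest sums, and no vein reached any graft.

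Apoptosis is the process named in the title of the series. Of 34 listed genes that promote it, 13 were tested. Of these 13, 7 were higher and 0 lower (median 0.57), 7 above veins and opposite arteries, or 5 without the mixture-like pair and 3 after rescaling to TPM. BAX, which opens the outer mitochondrial membrane, stood at 31.3, 29.6, 38.7 and 52.1 FPKM in grafts and 9.05, 11.0, 9.73 and 12.4 FPKM in veins (log2 difference 1.73, SE 0.19, adjusted p = 0.000388). BAK1, its partner, stood at 32.8, 28.6, 28.2 and 28.9 FPKM in grafts and 8.81, 11.1, 9.19 and 7.02 FPKM in veins (log2 difference 1.62, SE 0.14, adjusted p = 0.000127). TNFRSF1A, a death receptor, was 1.65-fold higher (log2 difference 0.70, SE 0.10, adjusted p = 0.00106), a call lost after rescaling to TPM (adjusted p = 0.279). Of 14 tested genes that restrain apoptosis, from 18 listed, 2 were higher and 2 lower (median 0.09, of either sign across fits). Among all genes, 21.2% were higher and 14.1% lower. BCL2A1, a survival gene of white blood cells, was 16.3-fold higher (log2 difference 3.58, SE 0.30, adjusted p = 0.00012), and FAIM2 was higher at a low level (0.46 to 1.65 FPKM, log2 difference 0.82, SE 0.22, adjusted p = 0.0194). The call of FAIM2 ended without vein replicate 4 (adjusted p = 0.0543) and in 3 other fits, up to 0.12 without the mixture-like pair. CRYAB, a small heat shock protein of muscle, was 8.23-fold lower (log2 difference -3.01, SE 0.27, adjusted p = 0.000174). BCL2 itself stood at 0.51, 0.57, 1.22 and 1.58 FPKM in grafts and 3.12, 1.89, 1.84 and 1.78 FPKM in veins (log2 difference -0.70, SE 0.23, adjusted p = 0.0465), and its call held in only 5 of 19 alternative fits, ending without any 1 of the 4 veins or of graft replicates 1 to 3 (highest adjusted p = 0.111, without vein replicate 1).

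Signalling genes of the transforming growth factor beta and bone morphogenetic protein family were more often lower. Of 37 tested, 12 were lower and 6 higher (median -0.22), or 12 and 3 without the mixture-like pair. BMP6, a ligand, stood at 0.53, 1.09, 0.84 and 1.42 FPKM in grafts and 24.2, 31.9, 22.4 and 24.9 FPKM in veins (log2 difference -3.78, SE 0.18, adjusted p = 7.54e-06). TGFBR3, a co-receptor, was 7.01-fold lower (log2 difference -2.49, SE 0.23, adjusted p = 0.000185). Extracellular inhibitors were lower as well: FST, follistatin, which traps activins, stood at 0, 1.17, 0.75 and 0.49 FPKM in grafts and 38.0, 11.5, 30.5 and 29.6 FPKM in veins (log2 difference -4.08, SE 0.39, adjusted p = 0.000186), and CHRDL1, which traps bone morphogenetic proteins, was listed at 0 in all grafts and at 2.10 to 4.68 FPKM in veins. For all 4 the grafts lay below veins and opposite arteries.

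In Wnt signalling, 9 of 21 genes were lower and 4 higher (median -0.61), or 6 and 3 without the mixture-like pair. SFRP4, a secreted Wnt antagonist of the adventitia, stood at 7.60, 5.02, 4.01 and 2.94 FPKM in grafts and 53.1, 54.7, 53.5 and 55.6 FPKM in veins (log2 difference -3.29, SE 0.22, adjusted p = 4e-05), with opposite arteries at 3.90 to 4.80 FPKM, inside the range of the grafts. NKD1, an inhibitor that the pathway switches on, was 6.89-fold lower (log2 difference -2.68, SE 0.34, adjusted p = 0.000745), and WNT5B, a ligand, 2.59-fold (log2 difference -1.13, SE 0.19, adjusted p = 0.00244). LEF1, the nuclear partner of beta-catenin and also a lymphocyte factor, was 15.1-fold higher (log2 difference 2.10, SE 0.19, adjusted p = 0.000177).

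Positional transcription factors, which keep a record of where in the embryo a vessel arose, separated vein from both arterial groups in several cases. Of 21 tested, 8 were lower and 2 higher in the graft than in the vein (median -0.33), or 5 and 2 without the mixture-like pair. MSX2 stood at 2.10, 2.41, 1.74 and 1.35 FPKM in grafts, 20.4, 10.0, 14.9 and 16.6 FPKM in veins and 1.20 to 1.43 FPKM in opposite arteries (log2 difference -2.48, SE 0.22, adjusted p = 0.000159). MEOX2 stood at 9.28 to 16.2 FPKM in grafts, 46.1 to 52.7 FPKM in veins and 9.76 to 11.2 FPKM in opposite arteries (log2 difference -1.94, SE 0.19, adjusted p = 0.000217), and PRRX1 at 18.3 to 27.0, 54.2 to 64.2 and 26.1 to 28.0 FPKM (log2 difference -1.40, SE 0.14, adjusted p = 0.000227). For these 3 genes grafts and opposite arteries overlapped and veins stood apart. TBX15 (log2 difference -1.52, SE 0.14, adjusted p = 0.000168) and TBX18 (log2 difference -0.92, SE 0.19, adjusted p = 0.00787) were instead below veins and arteries, with the call of TBX18 lost without the mixture-like pair (adjusted p = 0.07). The higher members were FOXS1 (log2 difference 1.00, SE 0.19, adjusted p = 0.00529) and TBX2, at 11.9 to 25.9 FPKM in grafts, 3.79 to 4.43 FPKM in veins and 27.7 to 30.6 FPKM in opposite arteries (log2 difference 1.85, SE 0.22, adjusted p = 0.000543), both named after their values were seen. HOXA5 overlapped between grafts and veins (1.05 to 3.53 and 0.6 to 3.95 FPKM) and did not pass.

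Fibroblast and adventitial genes were more often lower than higher. Of 19 tested, 10 were lower and 3 higher (median -1.14), or 7 and 0 without the mixture-like pair and 11 and 0 after rescaling to TPM. The sum was 5395, 5509.7, 4056 and 3838 FPKM in graft replicates 1 to 4 and 9186 to 9504 FPKM in veins. DCN, SFRP4 and MFAP5, given above, had the smallest adjusted p together with PCOLCE2, an enhancer of collagen processing (log2 difference -2.34, SE 0.27, adjusted p = 0.000439). PDGFRA, the growth factor receptor that marks fibroblasts, did not pass, with 2.85 to 5.52 FPKM in grafts and 3.76 to 5.99 FPKM in veins. Nerve and Schwann cell genes were lower in 8 of 12 cases and higher in 1 (median -0.76). The lower count became 5 without vein replicate 1, without vein replicate 4, without graft replicate 3, without graft replicate 4 and without the mixture-like pair. S100B (log2 difference -4.23, SE 0.38, adjusted p = 0.000155), ERBB3, the receptor for neuregulin (log2 difference -1.13, SE 0.15, adjusted p = 0.000998), and SCN7A, a sodium channel of glia (log2 difference -2.14, SE 0.17, adjusted p = 0.000103), were lower. MBP, a myelin gene that white blood cells also transcribe, was higher (log2 difference 2.34, SE 0.55, adjusted p = 0.0126), with 5.10, 6.19, 25.6 and 30.1 FPKM in grafts, and lost its call without the mixture-like pair (adjusted p = 0.0835). MBP was named after its values were seen.

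Adipocyte genes were lower in 4 of 9 cases and higher in 0 (median -0.79). The count was 3 lower without the mixture-like pair, and 1, FABP4, was higher without graft replicate 1 (adjusted p = 0.0308). With genes listed at 0 left out, 2 of 6 were lower and the median was 0.11, and with a filter of 5 FPKM 2 of 5 were lower and the median was 0.92. The summed level of the list was 299, 439.5, 1235 and 1434 FPKM in graft replicates 1 to 4 and 137 to 551 FPKM in veins, with grafts 1 and 2 within the range of the veins and grafts 3 and 4 above it. FABP4, a fatty acid carrier that macrophages make as well (log2 difference 1.47, SE 0.59, adjusted p = 0.0867), ADIPOQ, adiponectin (log2 difference 0.92, SE 0.38, adjusted p = 0.0947), and LPL, lipoprotein lipase (log2 difference 1.13, SE 0.94, adjusted p = 0.39), did not pass, and were named after their values were seen. GPD1, glycerol phosphate dehydrogenase, stood at 1.20, 0.63, 0.13 and 0.25 FPKM in grafts and 72.4, 12.6, 51.4 and 59.2 FPKM in veins (log2 difference -4.81, SE 0.52, adjusted p = 0.000346), with vein replicate 2 the lowest vein. DGAT2, which makes triglyceride, was 8.78-fold lower (log2 difference -2.82, SE 0.33, adjusted p = 0.000539), CIDEA, of the fat droplet, was listed at 0 to 0.07 FPKM in grafts and 1.10 to 7.20 FPKM in veins (log2 difference -2.42, SE 0.41, adjusted p = 0.00293), and LEP, leptin, at 0 in all grafts and 0.28 to 3.93 FPKM in veins. The call of LEP ended without the mixture-like pair (adjusted p = 0.0898). HP, haptoglobin, a binder of free haemoglobin made by liver and fat, had one of the largest falls, from 1555, 439.6, 1188 and 1215 FPKM in veins to 54.6, 37.4, 17.3 and 10.9 FPKM in grafts (log2 difference -5.26, SE 0.56, adjusted p = 0.000325), and vein replicate 2 was again the lowest vein. Of 5 skeletal and cardiac muscle genes, CKM, muscle creatine kinase, was higher (log2 difference 1.87, SE 0.58, adjusted p = 0.0369) at 6.35, 8.74, 2.42 and 0.27 FPKM in grafts, against 11.3 ± 0.552 FPKM in opposite arteries. Its call held in 8 of 18 alternative fits and ended without any 1 of the 4 veins or of graft replicates 1 to 3 (highest adjusted p = 0.131, without the mixture-like pair). TCAP, of the sarcomere (4.20 to 55.2 FPKM in grafts and 22.4 to 37.3 FPKM in veins), and TNNC1, a troponin (2.44 to 14.4 and 2.52 to 5.58 FPKM), overlapped and did not pass.

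Glycolysis and hypoxia genes were higher in 9 of 24 cases and lower in 3 (median 0.27), or 3 and 2 without graft replicate 3 and vein replicate 4 and 3 and 3 after rescaling to TPM. HIF1A, the oxygen-sensitive transcription factor, stood at 142, 137, 156 and 159 FPKM in grafts, 68.9, 72.5, 70.9 and 69.4 FPKM in veins and 151 to 164 FPKM in opposite arteries (log2 difference 1.06, SE 0.09, adjusted p = 0.000116). LDHA, which makes lactate, stood at 262, 273, 357 and 397 FPKM in grafts and 93.2, 79.9, 88.4 and 91.7 FPKM in veins (log2 difference 1.84, SE 0.15, adjusted p = 0.00012), and above the arteries (50.4 to 54.6 FPKM) too. GPI, an enzyme of glucose breakdown, was 1.84-fold higher (log2 difference 0.87, SE 0.12, adjusted p = 0.00106), lost after rescaling to TPM (adjusted p = 0.178), and ALDOC, an aldolase, was 11.3-fold lower (log2 difference -2.81, SE 0.34, adjusted p = 0.000577). Nuclear genes of oxidative phosphorylation were called in 4 of 22 cases, 2 in each direction, against 35.3% of all genes, with 5 higher without graft replicate 1. Median-of-ratios scaling gave 1 higher and 4 lower, quantile normalization 0 and 4, and rescaling to TPM 0 and 2. None was higher without vein replicate 1, 3 or 4 or graft replicate 3 or 4, and their median of 0.08 was below 0 under all 3 rescalings. COX7A1, a muscle form of a cytochrome oxidase subunit, was listed at 1.99, 0, 0 and 0 FPKM in grafts and 40.7, 51.9, 46.3 and 28.1 FPKM in veins (log2 difference -4.99, SE 0.39, adjusted p = 8.49e-05), and NDUFB5 was lower at a low level (log2 difference -1.12, SE 0.20, adjusted p = 0.00356). UQCRC1 (log2 difference 0.53, SE 0.16, adjusted p = 0.0304) and ATP5PB (log2 difference 0.28, SE 0.09, adjusted p = 0.0381) were called higher in the main test, but the calls held in 9 of 19 and 9 of 19 alternative fits. Both ended without vein replicate 1, 3 or 4, without graft replicate 3 or 4 and after rescaling to TPM (highest adjusted p = 0.667 and 0.945), among other fits, and that of UQCRC1 also without vein replicate 2. The mitochondrial gene CYTB was listed at 6122, 10421, 1312 and 0.2 FPKM in grafts, 0, 0.1, 0 and 0 FPKM in veins and 3619 to 3739 FPKM in opposite arteries. Graft replicate 4 was close to the veins, and the call (adjusted p = 0.0272) ended without any 1 of the 4 veins or of graft replicates 1 to 3 (highest adjusted p = 0.138, without the mixture-like pair). The 13 mitochondrial genes together held 3.98% of all FPKM in graft replicate 4 and 3.78% to 4.64% in veins. The values of CYTB near 0 in these libraries can therefore be failed estimates.

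Endoplasmic reticulum genes were higher in 6 of 22 cases and lower in 5 (median 0.06, below 0 under all 3 rescalings and -0.26 in TPM), or 4 and 1 without the mixture-like pair. Among all genes, 21.2% were higher and 14.1% lower. Higher members included genes of protein folding. MANF stood at 148, 215, 171 and 158 FPKM in grafts and 52.2, 56.1, 56.3 and 59.2 FPKM in veins (log2 difference 1.60, SE 0.13, adjusted p = 0.000102), SDF2L1 was 7.17-fold higher (log2 difference 2.35, SE 0.19, adjusted p = 0.000109) and PDIA6, a disulfide isomerase, 2.34-fold (log2 difference 1.21, SE 0.13, adjusted p = 0.000323). Of 10 cartilage and bone genes, 3 were higher and 4 lower (median -0.02), or 2 and 1 without the mixture-like pair. SOX9, the cartilage transcription factor, stood at 7.80, 2.66, 3.75 and 3.76 FPKM in grafts, 0.35 to 0.51 FPKM in veins and 3.12 to 3.94 FPKM in opposite arteries (log2 difference 1.85, SE 0.26, adjusted p = 0.00112), so the veins stood below both arterial groups. SOST, sclerostin, was lower (log2 difference -0.77, SE 0.17, adjusted p = 0.00893) at 0 to 0.26 FPKM in grafts and 0.43 to 1.10 FPKM in veins, against 16.9 to 18.9 FPKM in opposite arteries, and lost its call without the mixture-like pair (adjusted p = 0.0693).

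The remaining genes among the 12 largest falls lay far below the veins in all grafts. ADH1A, an alcohol dehydrogenase that also handles retinol, stood at 0.55, 0.72, 0.29 and 0.14 FPKM in grafts and 43.7, 36.7, 38.3 and 36.2 FPKM in veins (log2 difference -4.81, SE 0.16, adjusted p = 1.27e-06). ITGBL1, a secreted protein related to integrins, stood at 1.35, 1.80, 1.78 and 1.49 FPKM in grafts and 70.7, 61.0, 62.7 and 67.3 FPKM in veins (log2 difference -4.67, SE 0.11, adjusted p = 5.64e-07). SBSPON, a matrix protein with thrombospondin and somatomedin domains, stood at 8.86, 7.96, 1.75 and 0.62 FPKM in grafts and 115, 136, 119.5 and 122 FPKM in veins (log2 difference -4.80, SE 0.56, adjusted p = 0.000486). ENPP3, an ectoenzyme that splits nucleotides, stood at 2.67 to 3.65 FPKM in grafts, 73.7 to 99.4 FPKM in veins and 2.75 to 3.21 FPKM in opposite arteries (log2 difference -4.32, SE 0.14, adjusted p = 1.27e-06), so for this gene grafts and arteries overlapped and veins stood apart. Among the largest rises, RPL5, a ribosomal protein that every cell uses, was listed at 133, 210.2, 92.1 and 113 FPKM in grafts and at 0 in all 4 veins (adjusted p = 1.27e-06). With opposite arteries at 84.0 ± 15.2 FPKM, that 0 can be a failed estimate, as can the values of 0 of CD68, MYO1F, IL1RN, CHRDL1 and LEP in a whole group.

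**Figure D5:**
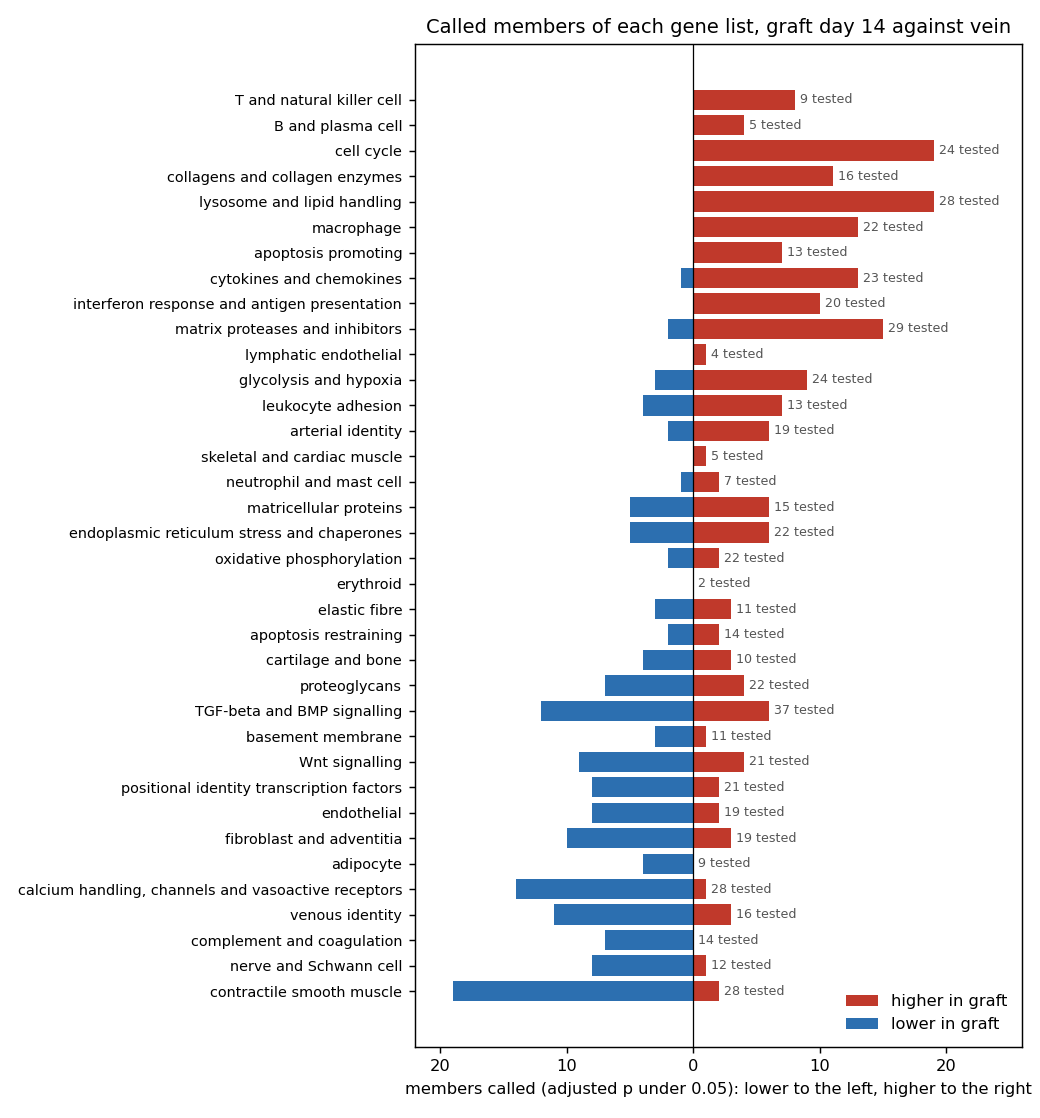
For each of 36 gene lists, bars give the number of tested members called higher (right) and lower (left) in the graft of day 14 than in the vein, at an adjusted p under 0.05, ordered by the net share. T cell, B cell, cell cycle, collagen, lysosome and macrophage lists stand at the top with no lower member, and contractile smooth muscle at the bottom with 19 of 28 lower.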

How the data were processed

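Total RNA from rabbit vessels was sequenced in paired-end libraries. The submitters' processing notes name the tools RSEM, StringTie, HISAT2, fastp and DESeq2, without versions or a role for each. No genome build is given in the sources used here. Values in FPKM were deposited by the authors for 24964 transcripts in 20 libraries, without read counts, so depth is unknown. FPKM were summed to 23669 genes, of which 8657 were tested: 6825 had a symbol in the table, 621 were named through NCBI gene entries of RefSeq (assembly mOryCun1.1), and 1211 had no symbol and were counted only.

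The 8 libraries were fitted in limma 3.58.1 (R 4.3.3) on log2(FPKM + 1), a scale that understates changes of low genes, with a mean per group and variances following the mean level. Tests were two-sided, with Benjamini-Hochberg adjustment over 8657 genes and a threshold of 0.05. Errors are limma's standard errors, or SD for FPKM. Folds are ratios of mean FPKM. On simulated data with 200 changed genes and the spread of each group, 9.46% of 148 calls were false. Calls recovered 48% of genes with a true log2 change of 1 and 86% of those with a change of 2. Noise was independent between genes, and far fewer genes were changed than the 3057 called in the data. These shares need not hold for the calls in the data.

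Members, lists and settings were chosen with earlier results of these data known. The text names the 12 largest rises and falls that passed without overlap and with at least 5 FPKM in the higher group, up to 4 passing genes of each list, taken by adjusted p (with up to 2 more where fewer passed), and a fixed set including THBS1 to THBS4. Some genes that this rule names are not reported here. Other genes are said to be named after their values were seen. Lists get counts and medians, without a set test. Replicate numbers were not used to pair grafts with veins in the main test. Tables were made with pandas 2.3.3, numpy 2.4.6 and scipy 1.17.1 in Python 3.11.15, and drawn with matplotlib 3.10.9.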

Additional observations from a re-analysis of the deposited data

Results flagged for a closer look

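Values in 1 library lay apart from the other 3 of their group in 340 groups of 4 values checked, 28 times; chance flags about 1 in 20 groups. Each is given in FPKM, with the range of the other 3 libraries. In graft replicate 1 these were ATP5PB at 27.4 (others 29.6 to 29.7), BAK1 at 32.8 (others 28.2 to 28.9), CCL2 at 83.9 (others 26.9 to 34.2) and COX7A1 at 1.99 (others 0). The same library held KCNMA1 at 15.4 (others 7.96 to 8.25), KIT at 4.43 (others 2.52 to 2.77), PROS1 at 24.3 (others 13 to 14.4) and THBS3 at 11.2 (others 8.92 to 9.28). In graft replicate 2 these were MFAP5 at 45.1 (others 25 to 27.4), SDF2L1 at 21.7 (others 12.5 to 13.6), SOST at 0.26 (others 0 to 0.02) and TNNC1 at 14.4 (others 2.44 to 4.27). In graft replicate 3 this was CIDEA at 0.07 (others 0). In graft replicate 4 this was NR2F2 at 0.86 (others 5.5 to 6.41). In vein replicate 1 this was BCL2 at 3.12 (others 1.78 to 1.89). In vein replicate 2 these were CHRDL1 at 2.1 (others 4.24 to 4.68), CYTB at 0.1 (others 0), EMCN at 154 (others 104 to 110) and ENPP3 at 99.4 (others 73.7 to 78). The same library held FBN1 at 33.5 (others 24.2 to 25.2), LOXL1 at 34.5 (others 29.6 to 30.2), PRSS23 at 257 (others 163 to 166) and S100A9 at 13.8 (others 32.4 to 36). The same library held TBX15 at 28.4 (others 20.2 to 21.4) and VTN at 0.02 (others 0). In vein replicate 3 these were CD2 at 1 (others 0.21 to 0.29) and OSM at 0.42 (others 0.13 to 0.17). In vein replicate 4 this was GUSB at 4.89 (others 0 to 0.68).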

How the results depend on the processing

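In 19 alternative fits the number of genes called ranged from 1522 to 3750, against 3057. Leaving out 1 library at a time gave 2359 to 3363 called genes, 1411 to 2058 higher and 922 to 1305 lower. Without graft replicate 3 and vein replicate 4, chosen after earlier results were known, 1522 were called, 890 higher and 632 lower, and rescaling to TPM gave 758 higher. The cause was not tested. Median-of-ratios scaling gave 1571 higher and 1452 lower. At an unadjusted p under 0.05, 3916 genes passed. A fit with the replicate number as a block called 2612 genes. Deviations of same-numbered grafts and veins from their group means were weakly correlated (-0.0769, 0.137, -0.0653 and 0.0384), and those of other pairs ran from -0.139 to 0.146. These correlations cannot settle whether same-numbered libraries share an animal, and title numbers and library names of the veins differ. Reversals occurred among named genes, all at values not past the threshold: the log2 difference of ATP5PB was -0.028 after rescaling to TPM, that of TFPI was -0.167 after rescaling to TPM and -0.0165 after quantile normalization, that of S100A8 ran from -0.0996 (without vein replicate 2) to 0.8 when 1 library was left out, and that of TNNC1 from -0.0966 (without graft replicate 2) to 0.625. Calls appeared in some fits for CCL21 (adjusted p = 0.00753 after rescaling to TPM), EPB42 (0.0435 over all 20 libraries), FABP4 (0.0308 without graft replicate 1) and HBB2 (0.0414 after rescaling to TPM). Sequencing depth is unknown, so no counting error can be given, and values of 0 may be failed estimates.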
